A study of Mus musculus with 33 samples.

Results

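The matricellular genes examined here are Thbs1, Thbs2, Cyr61, Ctgf, Nov, Postn, Tnc, Sparc and Fn1. They were taken by symbol, and all 9 were found once in each of the 4 deposited tables, among 27825 genes listed for each tongue table and 25965 for the table of sorted cells. The tongue groups were biallelic and wild type mice at E13.5, P0 and P20, with 3 libraries per genotype and stage. The sorted groups were 6 biallelic and 5 wild type E18.5 animals, whose costal cells were sorted as Cd24a+ and Cd200+, the gate that the labels give for pre-hypertrophic chondrocytes. Several of their markers go against that label, as given before their results, so they are called the sorted costal cells. The biallelic mice are Zac1o knockout animals that express Zac1 (Plagl1), an imprinted zinc finger transcription factor normally read from the paternal copy, from both copies; wild type mice are the controls. About 2000 sorted cells were used per animal.

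Matricellular proteins are secreted into the extracellular matrix and act mostly as signals to cells, through integrins and other surface receptors, and less as load-bearing fibres. They are made at high levels during development and wound repair and fall when a tissue matures. Thbs1 and Thbs2 encode the trimeric thrombospondins, which restrain blood vessel growth, and thrombospondin-1 also activates latent TGF-beta and binds Cd36 and Cd47. Cyr61, Ctgf and Nov encode the founding members of the CCN family, and Cyr61 and Ctgf are classical targets of YAP and TEAD. Postn encodes periostin and Tnc encodes tenascin-C, both of which mark embryonic connective tissue and tendon attachments. Sparc encodes osteonectin, a collagen-binding glycoprotein, and Fn1 encodes fibronectin, the fibre-forming protein that several of the others bind.

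RefSeq start-site windows, 250 bases before to 50 bases after the start on GRCm38.p6, were at hand for 5 of the 9 genes, namely Thbs2, Cyr61, Postn, Tnc and Sparc, in 7 windows. The windows of Cyr61 and of the Postn start nearest its gene model are shown because Cyr61 is a YAP target and Postn a connective tissue gene, and both are followed closely in the results. Capitals mark CATTCC, the core letters bound by TEAD factors, and TATAAA, the TATA box, which were searched on both strands and do not overlap each other.
Cyr61 (chr3:145649936-145650235, minus strand): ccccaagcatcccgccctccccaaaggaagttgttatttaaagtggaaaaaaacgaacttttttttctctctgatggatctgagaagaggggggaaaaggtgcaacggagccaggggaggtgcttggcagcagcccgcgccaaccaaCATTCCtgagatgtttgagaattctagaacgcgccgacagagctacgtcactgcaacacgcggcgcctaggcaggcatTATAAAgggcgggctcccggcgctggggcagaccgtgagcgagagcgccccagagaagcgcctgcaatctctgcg
Postn (chr3:54360857-54361156, plus strand): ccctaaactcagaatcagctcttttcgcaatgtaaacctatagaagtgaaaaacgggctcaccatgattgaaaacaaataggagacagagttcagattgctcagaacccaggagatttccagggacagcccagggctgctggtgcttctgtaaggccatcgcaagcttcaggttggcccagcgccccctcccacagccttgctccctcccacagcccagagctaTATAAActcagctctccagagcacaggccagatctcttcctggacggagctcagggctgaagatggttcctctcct
In the Cyr61 window CATTCC begins 103 bases before the start and TATAAA 25 bases before it. In the Postn window TATAAA begins 26 bases before the start and CATTCC is not among the letters. CATTCC on either strand stood in 14.7% and TATAAA in 13.6% of the 32851 mouse windows of this length, and a CArG box, the SRF site, stood in 1.6% of them and in none of the 7 member windows. A match of letters describes the window and was not tested as a binding site.

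Tongue libraries held 36832717 to 92249098 reads behind the deposited values. The columns of sorted cells, 1 per animal, held 7221013 to 15689559 reads in biallelic and 2938462 to 7887305 reads in wild type animals. For 4 biallelic animals, and no wild type animal, the labels list 2 libraries for the 1 column. Values are RPM, reads scaled to the library total without correction for gene length, and 3 reads are worth 0.0325 to 0.0814 RPM in tongue and 0.191 to 1.02 RPM in the sorted cells. The check of the genotype held in each table: Plagl1 stood at 157 to 275 RPM in biallelic and 66.1 to 105 RPM in wild type tongues at E13.5, at 430 to 499 RPM against 221 to 243 RPM at P0, and at 50.9 to 77.1 RPM against 23.1 to 30.5 RPM at P20. The 6 skeletal muscle markers were all detected in the tongues, with sums of 428 to 548 RPM in biallelic and 332 to 597 RPM in wild type tongues at E13.5, and of 17897 RPM or more in every library at P0 and P20. In the sorted costal cells Plagl1 stood at 17.5 to 49.99 RPM in biallelic and 3.18 to 15.3 RPM in wild type animals. Some libraries stood apart on the first principal component of their table and recur below: biallelic replicate 3 at E13.5, biallelic replicate 1 and wild type replicate 2 at P0, biallelic replicate 3 at P20, and wild type animals 7, 8 and 9 among the sorted cells. On GRCm38 Thbs1 lies on chromosome 2 from 118111876 to 118127133 (plus strand), Cyr61 on chromosome 3 from 145646971 to 145649985 (minus strand) and Postn on chromosome 3 from 54361109 to 54391034 (plus strand). Ctgf lies on the same chromosome as Plagl1, 11.5 Mb from it (chromosome 10, 24595442 to 24598683 on GRCm38). In the GENCODE annotation Thbs1, Ctgf, Tnc and Fn1 each overlap a transcript on the opposite strand, and with a strand setting not given in the sources used here such reads cannot be told apart.

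In the tongue the matricellular genes changed with stage: most were higher at birth than at E13.5, and Thbs1, Thbs2, Postn, Tnc and Sparc were lower again at P20. At P0 against E13.5, 7 of 9 genes were higher in biallelic tongues and 9 of 9 in wild type tongues (limma moderated test, Benjamini-Hochberg adjusted p under 0.05 over 13663 genes). Of all genes tested, 39.7% were called higher at P0 in biallelic and 37.9% in wild type tongues. The median log2 change of the 9 genes was 1.18 in biallelic and 1.45 in wild type tongues, against 0.05 and -0.04 over all genes tested. Thbs1 and Cyr61 were the 2 genes not called in biallelic tongues. E13.5 RNA was extracted with another kit than P0 and P20 RNA, so stage and kit cannot be told apart in the contrasts with E13.5, and each stage is a table of its own, so stage and table cannot be told apart in any.

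Among the connective tissue genes, Postn stood at 94.6, 130 and 179 RPM in biallelic and 77.8, 155 and 96.3 RPM in wild type tongues at E13.5. At P0 it stood at 335, 385 and 405 RPM in biallelic and 419, 368 and 379 RPM in wild type tongues, and at P20 at 69.9, 51.4 and 127 RPM in biallelic and 86.8, 102 and 78.1 RPM in wild type tongues. Every P0 library was thus above every E13.5 and P20 library, and genotypes overlapped at each stage. The log2 change of Postn at P0 over E13.5 was 1.52 ± 0.29 (SE) in biallelic tongues, a 2.87-fold difference (limma adjusted p = 0.000161), and 1.88 ± 0.29 in wild type tongues (adjusted p = 1.79e-05). At P20 over P0 it was -2.28 ± 0.29 in biallelic (adjusted p = 1.33e-05) and -2.13 ± 0.29 in wild type tongues (adjusted p = 2.95e-05). The 8 fibroblast markers, all of them detected, summed to 610.0 to 1590 RPM in biallelic and 602 to 946 RPM in wild type tongues at E13.5, to 2243 to 2631 RPM against 2346 to 2583 RPM at P0, and to 1478 to 1952 RPM against 1679 to 2430 RPM at P20. Fewer cells of a type and less RNA per cell cannot be told apart in whole tongues, and the part of fibroblast content in these changes was not tested.

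Tnc had the steepest fall of the 9 after birth. Its libraries stood at 54.7, 58.8 and 162 RPM in biallelic and 34.9, 77.9 and 70.0 RPM in wild type tongues at E13.5, and at 158, 186 and 152 RPM in biallelic and 162, 146 and 164 RPM in wild type tongues at P0. At P20 they stood at 16.8, 15.9 and 26.8 RPM in biallelic and 23.2, 20.9 and 17.8 RPM in wild type tongues, below all E13.5 libraries. The log2 change at P20 over P0 was -3.09 ± 0.35 in biallelic (limma adjusted p = 3.5e-06) and -2.94 ± 0.35 in wild type tongues (adjusted p = 7.02e-06). At P0 over E13.5 it was 1.03 ± 0.35 in biallelic (adjusted p = 0.0123) and 1.45 ± 0.35 in wild type tongues (adjusted p = 0.00111). Biallelic replicate 3 at E13.5, the library that stood apart, already reached the P0 level of Tnc. Without E13.5 biallelic replicate 1 or 2 the biallelic rise of Tnc was 0.75 or 0.80 and no longer called (adjusted p = 0.0746 and 0.0662).

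Both thrombospondins were lower at P20 than at P0 in each genotype. Thbs2, the form found in fibroblast-rich tissue, stood at 8.25, 10.6 and 15.6 RPM in biallelic and 6.55, 12.5 and 8.22 RPM in wild type tongues at E13.5. It stood at 23.7, 26.1 and 25.4 RPM in biallelic and 29.8, 27.9 and 25.2 RPM in wild type tongues at P0, and at 3.83, 6.03 and 5.63 RPM against 5.56, 5.68 and 6.59 RPM at P20. P0 was above both other stages in every library, and E13.5 and P20 overlapped in wild type tongues only. The fall at P20 over P0 was -2.31 ± 0.24 in biallelic (limma adjusted p = 1.46e-06) and -2.22 ± 0.24 in wild type tongues (adjusted p = 2.53e-06). Thbs1 stood at 33.8, 43.2 and 82.1 RPM in biallelic and 36.4, 28.0 and 32.1 RPM in wild type tongues at E13.5, and at 68.8, 46.3 and 35.1 RPM in biallelic and 46.4, 81.5 and 74.1 RPM in wild type tongues at P0. At P20 it stood at 12.8, 12.7 and 23.4 RPM in biallelic and 12.1, 17.2 and 14.8 RPM in wild type tongues, and every P20 library was below every earlier one. Its change at P0 over E13.5 was -0.03 ± 0.32 in biallelic (adjusted p = 0.93; 95% interval -0.71 to 0.65; 0.063 with median centring and 0.089 with scaling to the listed genes) and 1.03 ± 0.32 in wild type tongues (adjusted p = 0.00787). Its fall at P20 over P0 was -1.62 ± 0.32 in biallelic (adjusted p = 0.000702) and -2.17 ± 0.32 in wild type tongues (adjusted p = 6.3e-05). The stage change before birth was not shown to differ between genotypes: the difference of the genotype effect at P0 minus E13.5 was -1.07 ± 0.46 for Thbs1 (unadjusted p = 0.0323, limma adjusted p = 0.856), and 0.0% of 13663 genes were called in that test, while 766 genes had an unadjusted p under 0.05 and voom called none.

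Ctgf and Nov were higher at P0 than at E13.5 in both genotypes and were called in neither direction at P20. Ctgf stood at 2.06, 1.19 and 0.646 RPM in biallelic and 1.17, 2.94 and 1.56 RPM in wild type tongues at E13.5. It stood at 12.5, 8.92 and 5.62 RPM in biallelic and 8.50, 18.9 and 9.41 RPM in wild type tongues at P0, and at 13.4, 15.8 and 29.8 RPM in biallelic and 21.4, 31.4 and 12.7 RPM in wild type tongues at P20. Every E13.5 library was below every later one, and P0 and P20 libraries overlapped in wild type but not in biallelic tongues. The rise at P0 over E13.5 was 2.88 ± 0.48 in biallelic (7.35-fold, limma adjusted p = 3.83e-05) and 2.71 ± 0.48 in wild type tongues (6.56-fold, adjusted p = 6.89e-05). These were the largest estimates of the 9 genes in each genotype, but in wild type tongues Nov, at 2.68 ± 0.40, was within the SE. At P20 over P0 the change of Ctgf was 1.11 ± 0.48 in biallelic (adjusted p = 0.0667) and 0.83 ± 0.48 in wild type tongues (adjusted p = 0.163), short of the threshold. The biallelic rise passed it with log2(RPM + 1), with voom, and without E13.5 biallelic replicate 3 or P0 biallelic replicate 1 (1.02 to 1.38, adjusted p = 0.0204 to 0.0493). Nov stood at 0.354 to 1.14 RPM in biallelic and 0.444 to 0.973 RPM in wild type tongues at E13.5, at 2.61 to 3.83 RPM against 3.35 to 4.76 RPM at P0, and at 2.78 to 5.57 RPM against 3.09 to 5.22 RPM at P20. Its change at P0 over E13.5 was 2.18 ± 0.40 in biallelic and 2.68 ± 0.40 in wild type tongues (adjusted p = 0.000101 and 1.13e-05), and at P20 over P0 it was 0.23 ± 0.40 and 0.01 ± 0.40 (adjusted p = 0.656 and 0.988). In the wild type the last value was -0.21 after median centring and -0.17 with scaling to the listed genes.

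Cyr61 was the CCN gene whose libraries scattered most at P0. It stood at 5.08, 6.16 and 10.7 RPM in biallelic and 6.37, 6.96 and 7.04 RPM in wild type tongues at E13.5, and at 17.2, 7.39 and 5.56 RPM in biallelic and 9.27, 24.98 and 12.3 RPM in wild type tongues at P0. The 2 P0 libraries with the highest Cyr61 and the highest Ctgf, biallelic replicate 1 and wild type replicate 2, were the 2 that stood apart at that stage. Its within-group SD at P0 was 0.79 on the log2 scale, larger than that of 98.8% of the 12489 genes tested, while the SD of Sparc, 0.04, was larger than that of only 1.2%. Wild type tongues were called higher for Cyr61 at P0 over E13.5 (1.06 ± 0.37, limma adjusted p = 0.0163) and lower at P20 over P0 (-1.16 ± 0.37, adjusted p = 0.0186), and biallelic tongues were called in neither step (0.36 ± 0.37 and 0.23 ± 0.37, adjusted p = 0.393 and 0.644). Both wild type calls were lost without P0 wild type replicate 2 (0.65 and -0.75, adjusted p = 0.116 and 0.119), and the second also without P20 wild type replicate 1 (-1.09, adjusted p = 0.0564).

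Sparc and Fn1 kept high levels at all stages. Sparc stood at 143, 179 and 170 RPM in biallelic and 141, 165 and 158 RPM in wild type tongues at E13.5. It stood at 271, 289 and 276 RPM in biallelic and 310.1, 302 and 293 RPM in wild type tongues at P0, and at 170.1, 170.4 and 266 RPM in biallelic and 223, 266 and 183 RPM in wild type tongues at P20. P0 libraries were above all others. It rose by 0.77 ± 0.17 in biallelic and 0.97 ± 0.17 in wild type tongues at P0 over E13.5 (limma adjusted p = 0.000477 and 5.01e-05) and then changed by -0.49 ± 0.17 and -0.45 ± 0.17 at P20 over P0 (adjusted p = 0.0218 and 0.0364). These last calls were the least firm of the set: leaving out biallelic P0 replicate 2, P20 replicate 1 or P20 replicate 2 ended the first, with values of -0.47, -0.39 and -0.39 (adjusted p = 0.0612, 0.102 and 0.102). Leaving out any P0 wild type replicate, or P20 wild type replicate 1 or 3, ended the second (-0.47 to -0.31, adjusted p = 0.0579 to 0.177). Fn1 stood at 69.8 to 148 RPM in biallelic and 59.7 to 107 RPM in wild type tongues at E13.5, at 216 to 238 RPM against 179 to 248 RPM at P0, and at 162 to 232 RPM against 204 to 332 RPM at P20. Its rise at P0 over E13.5 was 1.25 ± 0.27 in biallelic and 1.27 ± 0.27 in wild type tongues (adjusted p = 0.000432 and 0.000356), and its change at P20 over P0 was -0.29 ± 0.27 and 0.26 ± 0.27 (adjusted p = 0.388 and 0.435).

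At P20 against P0, 5 of the 9 genes were thus called lower in biallelic tongues (Thbs1, Thbs2, Postn, Tnc and Sparc) and 6 in wild type tongues (these and Cyr61), and none was called higher. Over all genes tested, 17.3% were called lower in biallelic and 14.9% in wild type tongues. With median centring of the libraries these shares were 25.5% and 23.2%, with the median of all genes at 0.18 in biallelic and 0.22 in wild type tongues as deposited and at -0.018 and -0.002 after centring. The counts of 5 and 6 were the same under that scaling.

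**Figure D1:**
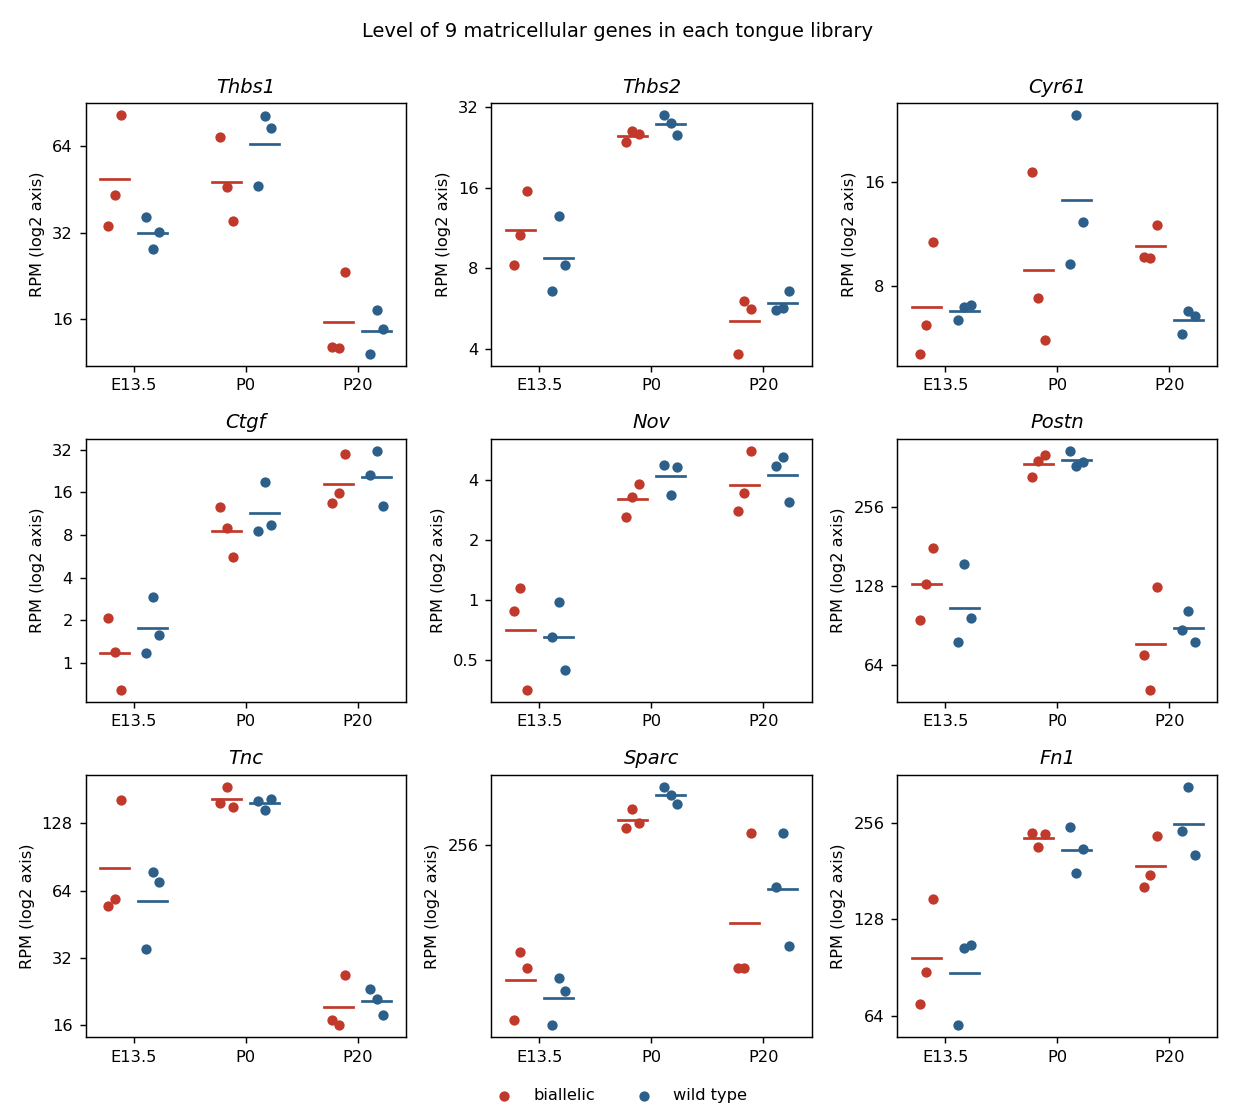
RPM (log2 axis) of the 9 genes in each tongue library by stage, with biallelic points left of wild type points and bars at the mean of the log2 values (3 libraries per group). Postn and Thbs2 are highest at P0 in every library, 1 biallelic E13.5 library reaches the P0 level of Tnc, and Ctgf and Nov do not return to their E13.5 level at P20.

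**Figure D2:**
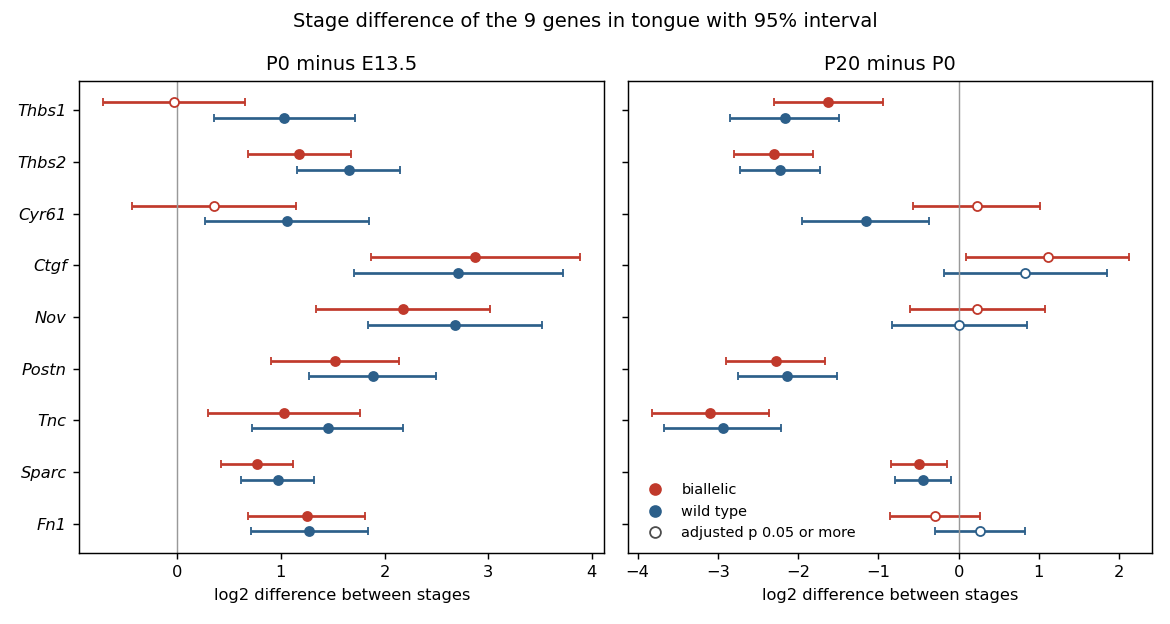
Log2 difference between stages for each gene with its 95% interval, biallelic above wild type, with filled points for adjusted p under 0.05. The P0 minus E13.5 values of Thbs1 and Cyr61 are the 2 open biallelic points, and 5 biallelic and 6 wild type genes lie below 0 with filled points in P20 minus P0.

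Per kilobase of exon, the order of the levels was led by Sparc in the tongue. At E13.5 it stood at 43.3 ± 5.0 RPM per kb in biallelic and 40.7 ± 3.3 in wild type tongues (SD, n = 3), followed by Postn at 15.5 ± 4.9 and 12.6 ± 4.7, and Tnc, Thbs1 and Fn1 next, which did not differ beyond their spread. At P0 Sparc stood at 73.5 ± 2.4 RPM per kb in biallelic and 79.6 ± 2.3 in wild type tongues and Postn at 43.1 ± 4.2 and 44.7 ± 3.1, with Tnc at 21.3 ± 2.4 and 20.2 ± 1.2 and Fn1 at 19.7 ± 1.1 and 18.2 ± 2.9 within their spread of each other. At P20 Sparc stood at 53.4 ± 14.6 RPM per kb in biallelic and 59.1 ± 10.9 in wild type tongues, Fn1 at 16.3 ± 3.2 and 22.2 ± 5.6, and Postn at 9.49 ± 4.50 and 10.2 ± 1.4. Ctgf, next to last at E13.5 with 0.454 ± 0.248 RPM per kb in biallelic and 0.660 ± 0.325 in wild type tongues, followed Postn at P20 with 6.87 ± 3.10 and 7.63 ± 3.26. Nov at E13.5 and Thbs2 at P20 were the lowest of the set, with 0.276 ± 0.140 and 0.737 ± 0.167 RPM per kb in biallelic and 0.240 ± 0.093 and 0.849 ± 0.080 in wild type tongues.

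Between the genotypes none of the 9 genes passed the threshold in any table. Plagl1 itself passed it only at P0 (log2 difference 1.03, limma adjusted p = 0.0469). It fell short at E13.5 (1.20, adjusted p = 0.992), at P20 (1.30) and in the sorted costal cells (1.74, adjusted p = 0.423). A gene short of the threshold is therefore not shown to be unchanged. At E13.5 none of the 8 members tested was called, with Nov below the filter of 1 RPM in 3 libraries, and 0.0% of 11869 genes were called, while 386 had an unadjusted p under 0.05. At P0 none of 9 was called, against 0.016% of 12489 genes. At P20 none of 9 was called, against 0.0% of 12693 genes, while 286 had an unadjusted p under 0.05. Among the members tested, 1 had such a p at E13.5 (Thbs1), 0 at P0 and 1 at P20 (Cyr61). Limma with voom weights on the recovered reads called none of the genes in any of these tables. Medians of the members tested were 0.23 at E13.5, -0.14 at P0 and -0.17 at P20, against -0.06, 0.04 and -0.02 over all genes tested. Averaged over the 3 stages none of the 9 was called (log2 differences -0.38 to 0.15), against 0.022% of 13663 genes.

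Cyr61 at P20 had the smallest p of the 9 genes in the tongue. It stood at 9.72, 9.65 and 12.0 RPM in biallelic tongues, against 5.80, 6.75 and 6.55 RPM in wild type tongues, and the groups did not overlap. The log2 difference was 0.71 ± 0.12 (95% interval 0.42 to 1.01), a 1.64-fold difference with an unadjusted p of 0.00067, which was rank 4 of the 12693 genes, but its limma adjusted p was 1. It was the only member without overlap at that stage, where 6.89% of all genes tested did not overlap. The difference stayed between 0.61 and 0.77 under every alternative setting, leaving out each library included, with adjusted p of 0.573 to 1. At P0 the same gene lay the other way, at -0.67 ± 0.48 (adjusted p = 1; -1.14 to -0.26 with a library left out), and the difference of the genotype effect at P20 minus P0 was 1.38 ± 0.53 (unadjusted p = 0.0186, adjusted p = 1; 0.0% of 13663 genes called, 185 with an unadjusted p under 0.05, and none called with voom). With a tongue library left out that difference was 0.97 to 1.86.

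Sparc at P0 stood at 271 to 289 RPM in biallelic and 293 to 310.1 RPM in wild type libraries, without overlap, where 8.9% of genes did not overlap. Its log2 difference was -0.12 ± 0.08 (95% interval -0.30 to 0.07, limma adjusted p = 1), a ratio of 0.923. At E13.5 no member lacked overlap, against 10.1% of genes tested. Thbs1 at E13.5 lay at 0.62 ± 0.27 (95% interval 0.02 to 1.23, unadjusted p = 0.0452, limma adjusted p = 0.992), and this rested on biallelic replicate 3: without it the difference was 0.26. That library was also the highest of its stage for Thbs2, Cyr61, Postn, Tnc and Fn1. Its hypoxia genes summed to 1425 RPM, against 286 to 330.4 RPM in the other 5 libraries, and its fibroblast markers to 1590 RPM, against 602 to 946 RPM, and their part in the result was not tested. In that table all 8 hypoxia genes tested lay above 0, with a median of 0.69. Tnc at E13.5 differed by 0.49 ± 0.41 (adjusted p = 0.992) with that library and by -0.02 without it. For Postn the genotype difference was 0.31 ± 0.27 at E13.5, -0.06 ± 0.11 at P0 and -0.20 ± 0.31 at P20 (adjusted p = 0.992, 1 and 1), and for Ctgf at E13.5 it was -0.59 ± 0.51 (95% interval -1.72 to 0.55, adjusted p = 0.992). With a library left out these E13.5 differences ran from 0.08 to 0.59 for Postn and from -0.99 to -0.16 for Ctgf, lowest in size without biallelic replicate 3 for both. Nov at P0 lay at -0.39 ± 0.20 and Fn1 at P20 at -0.43 ± 0.22 (adjusted p = 1 each), with overlapping groups, and with a library left out they ran from -0.55 to -0.24 and from -0.59 to -0.24.

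**Figure D3:**
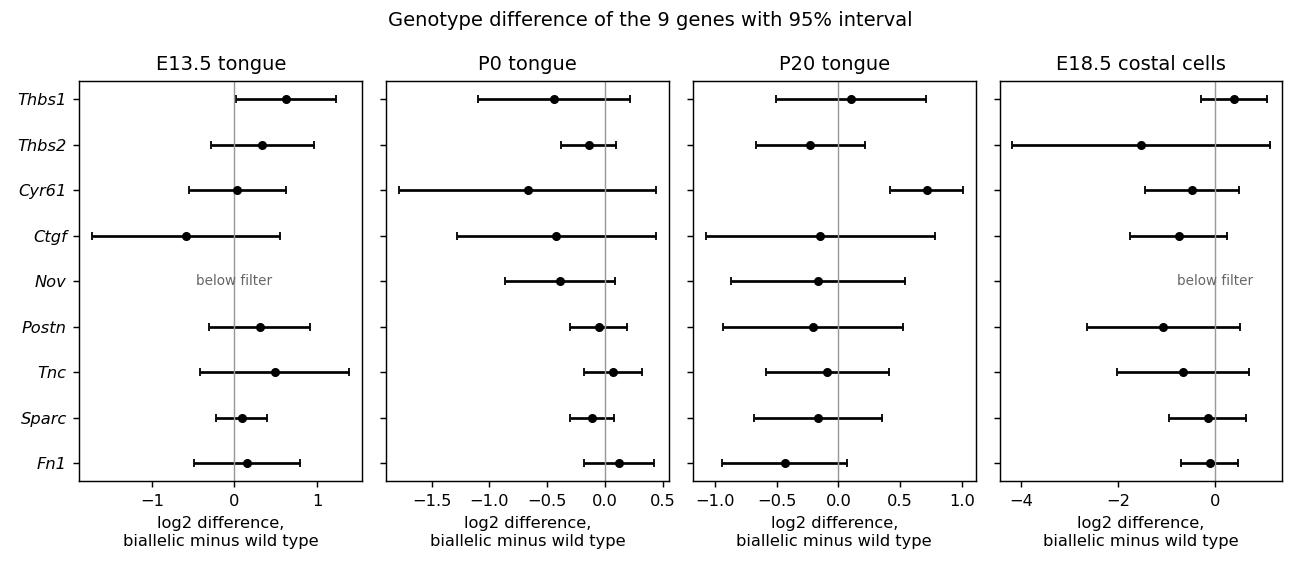
Log2 difference, biallelic minus wild type, of each gene in the 4 tables with its 95% interval (each panel has its own axis range). Intervals that exclude 0 are those of Thbs1 at E13.5 and Cyr61 at P20, neither of which passed the adjusted threshold.

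The label of the sorted cells was checked against markers, and several of them go against it. All 5 genes of the pre-hypertrophic and hypertrophic list were detected. Their sum was 46.0 to 76.0 RPM in biallelic and 36.2 to 63.8 RPM in wild type animals. Of these genes Ihh and Col10a1 were nearly absent. All 6 listed macrophage and leukocyte genes were detected as well. Col2a1, the main collagen of cartilage, stood at 245 to 760 RPM in biallelic and 154 to 433 RPM in wild type animals, and Acan at 6.03 to 25.5 RPM and 7.08 to 44.3 RPM. Ihh, the signal that defines pre-hypertrophic chondrocytes, was at 0 reads in 5 biallelic animals of 6 and in 4 wild type animals of 5, and Col10a1 did not pass 0.638 RPM in any animal. The 2 genes of the gate were present, Cd24a at 41.2 to 55.6 RPM in biallelic and 28.7 to 50.8 RPM in wild type animals, and Cd200 at 4.78 to 21.3 RPM and 5.79 to 19.0 RPM. Of the macrophage and leukocyte list 6 of 7 genes were listed and all 6 were detected, with a sum of 2840 to 3847 RPM in biallelic and 2424 to 3645 RPM in wild type animals, while the 7 chondrocyte genes summed to 313 to 879 RPM and 180.4 to 532 RPM. Csf1r stood at 549.8 to 861 RPM and 291 to 598 RPM, and Cd68 at 479 to 673 RPM and 283 to 570.0 RPM. The platelet list, all 6 of whose genes were detected, summed to 253 to 816 RPM in biallelic and 412 to 566 RPM in wild type animals. The part of such cells in the levels and differences below was not tested.

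In the sorted costal cells Thbs1 was among the most abundant of all transcripts. It ranked 2 of the 25965 listed genes in 10 of 11 animals, after Fth1 (ferritin heavy chain), and 1 in wild type animal 11. The other most abundant transcripts were those of Ftl1 (ferritin light chain), Arg1 (arginase-1), Actb and Hmox1 (heme oxygenase-1). It stood at 22542, 13817, 15717, 18286, 11890.3 and 22808 RPM in biallelic animals 1 to 6 and at 9359, 11812, 7863, 19355 and 21991 RPM in wild type animals 7 to 11. The lowest animals were wild type 9 and 7, followed by wild type 8 and biallelic 5, and the groups overlapped. Tongue libraries lay between 12.1 and 82.1 RPM for this gene, but they were made from RNA depleted of ribosomal RNA and the libraries of sorted cells from polyadenylated RNA by SMART-seq2, so the levels are given side by side without a test. Per kilobase of exon Thbs1 averaged 2883 ± 745 RPM in biallelic (SD, n = 6) and 2318 ± 1030 RPM in wild type animals (SD, n = 5), against 28.1 ± 15.3 and 33.2 ± 21.9 for Sparc, the next of the set. After Thbs1, Sparc and Fn1 (26.1 ± 12.7 in biallelic and 26.2 ± 5.3 in wild type) did not differ beyond their spread, nor did Cyr61 (11.8 ± 8.5 and 15.6 ± 9.9) and Postn (11.1 ± 17.0 and 14.4 ± 11.01).

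None of the 8 members tested was called by genotype in the sorted costal cells, where Nov lay below the filter, and none had an unadjusted p under 0.05. Of all 11127 genes 0.0% were called, 1298 had an unadjusted p below 0.05, and limma with voom weights called none. No member lacked overlap between the groups, against 0.872% of all genes. Thbs1 differed by 0.39 ± 0.32 (95% interval -0.29 to 1.07, limma adjusted p = 0.591). The other 7 members lay below 0, with a median over the 8 of -0.57 against -0.11 over all genes: Thbs2 by -1.53 ± 1.24 (adjusted p = 0.59), Postn by -1.07 ± 0.74 (adjusted p = 0.536), Ctgf by -0.74 ± 0.47 (adjusted p = 0.508), Tnc by -0.65 ± 0.64 (adjusted p = 0.653) and Cyr61 by -0.48 ± 0.45 (adjusted p = 0.64). Every one of these but Ctgf turned round without wild type animals 7, 8 and 9, to -0.28 for Thbs1, 0.19 for Thbs2, 0.09 for Postn, 0.62 for Tnc and 0.19 for Cyr61 (adjusted p = 0.948 to 0.997). These 3 animals were set apart by the same values, and wild type animals 10 and 11 alone remained. Biallelic animal 5, high for Thbs2 and Postn like animals 7 and 9, was kept. The turn is therefore not a test of the genotype difference. Neutrophil markers, all 6 of which were detected, summed to 66.1 to 201 RPM in the biallelic animals, to 1771, 1001 and 1589 RPM in wild type animals 7, 8 and 9 and to 149 and 109 RPM in wild type animals 10 and 11, and macrophage and leukocyte markers were at their lowest in the same 3 animals (2424 to 2465 RPM). Their part in these differences was not tested.

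**Figure D4:**
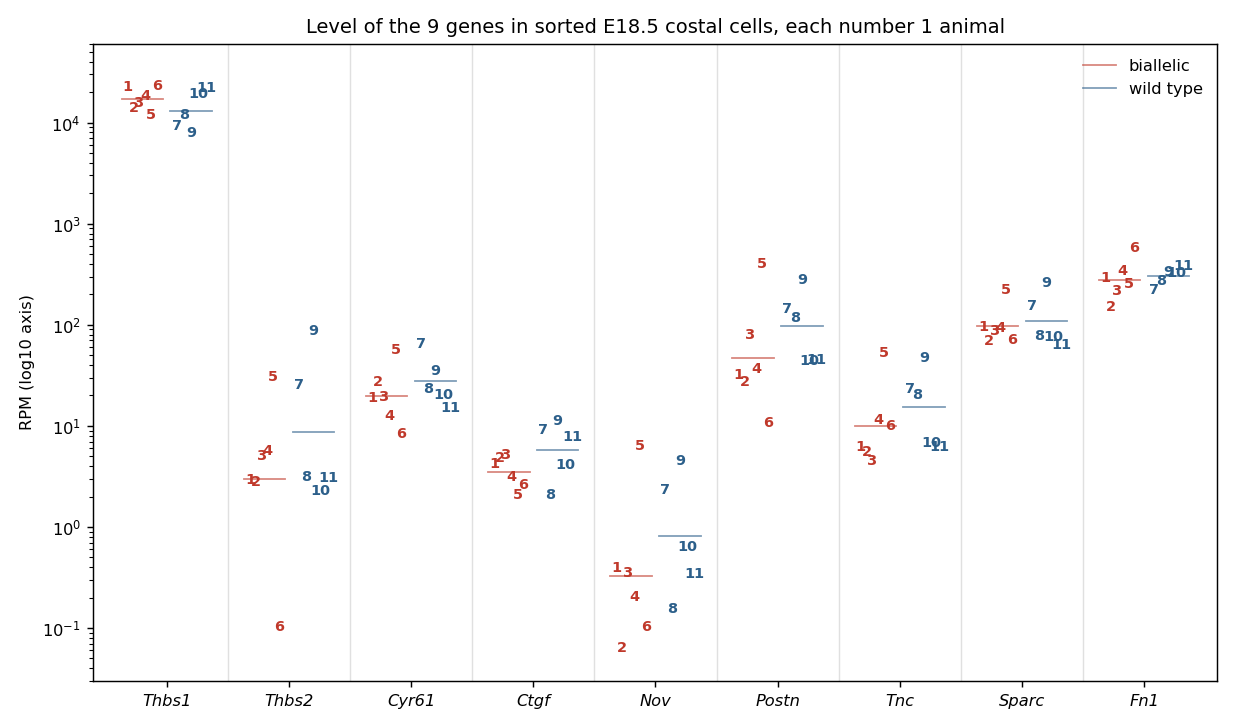
RPM (log10 axis) of the 9 genes in the sorted costal cells, each number 1 animal, with 0 reads drawn at 0.9 reads (biallelic 1 to 6 on the left of each gene, wild type 7 to 11 on the right) and lines at the mean of the log2 values. Thbs1 lies at 7863 RPM or more in every animal, and animals 5, 7 and 9 are the highest for Thbs2, Nov, Postn and Sparc.

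Among the connective tissue genes of the sorted costal cells the spread between animals was larger than the difference between genotypes. Postn stood at 32.0, 27.1, 79.2, 36.3, 396 and 10.7 RPM in biallelic animals 1 to 6 and at 144, 117, 277, 43.4 and 44.6 RPM in wild type animals 7 to 11, a 37.0-fold range. Thbs2 stood at 2.95, 2.80, 5.08, 5.59 and 30.7 RPM in biallelic animals 1 to 5, with 0 reads in animal 6, and at 25.5, 3.11, 87.7, 2.28 and 3.06 RPM in wild type animals 7 to 11. Biallelic animal 5 and wild type animals 7 and 9 were the 3 highest for Thbs2, Postn, Sparc, Tnc and Nov, in some order, across both genotypes. The 8 fibroblast markers, all of them detected, moved with them: their sum was 1428 RPM in animal 5 and 632 and 1481 RPM in animals 7 and 9, against 117 to 331 RPM in the other 8 animals. The osteoblast list, which shares Col1a1 with the fibroblast list, was likewise highest in these 3 animals, at 497, 107 and 276 RPM, against 11.9 to 94.0 RPM in the others. The part of fibroblasts or osteoblasts in the sort was not tested.

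**Figure D5:**
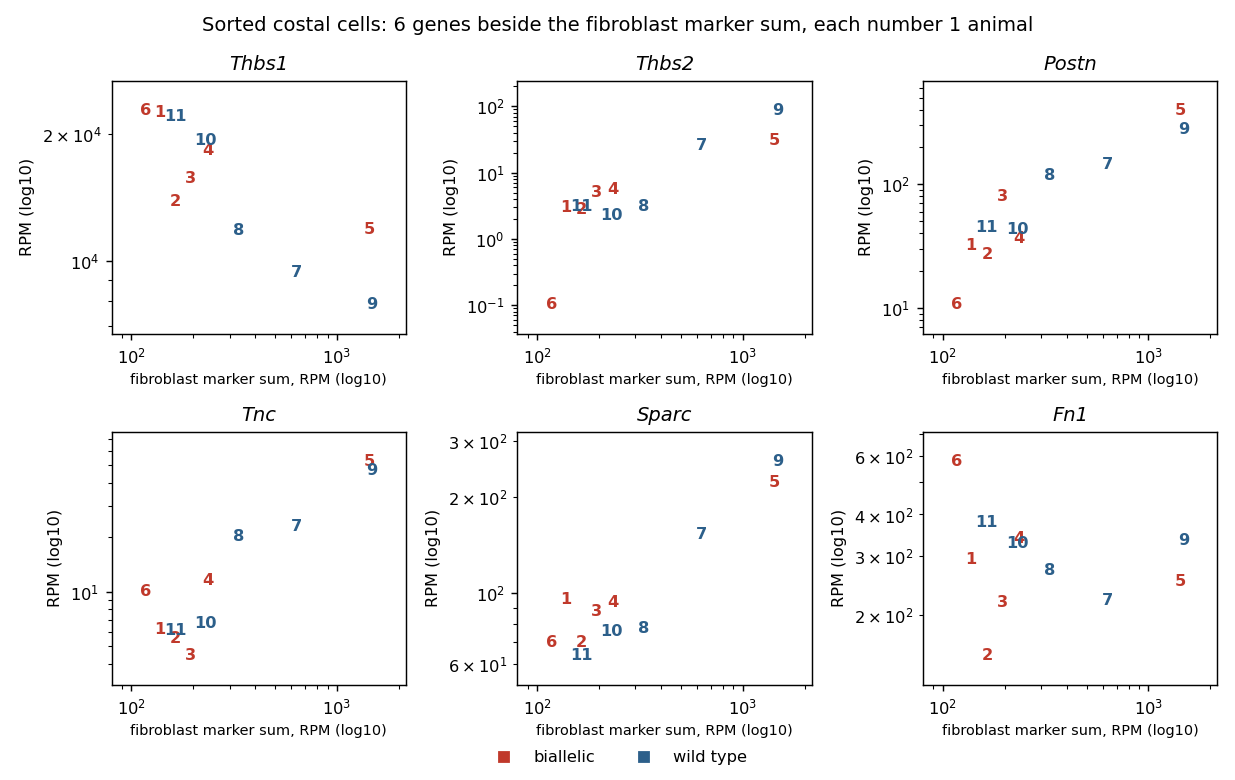
RPM of 6 of the genes (log10 axis) against the summed RPM of the 8 fibroblast markers (log10 axis), each number 1 animal. Animals 5, 7 and 9 lie to the right; Thbs2, Postn, Tnc and Sparc are highest there, Thbs1 is lowest in animals 9 and 7, and Fn1 is highest in biallelic animal 6.

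The 2 YAP targets of the set had their highest values in partly different animals. Cyr61 stood at 19.0, 27.1, 19.5, 12.5, 56.4 and 8.30 RPM in biallelic animals and at 64.7, 23.3, 34.9, 20.03 and 15.0 RPM in wild type animals. Wild type 7, biallelic 5 and wild type 9 were the highest, the same animals as for Postn and Thbs2. Ctgf stood at 4.19, 4.84, 5.15, 3.15, 2.08 and 2.62 RPM in biallelic animals and at 9.18, 2.07, 11.1, 4.06 and 7.83 RPM in wild type animals. Wild type animals 9 and 7 were thus the highest for Ctgf, while biallelic animal 5 was the lowest of its group. Nov had 0 or 1 reads in biallelic animals 2 and 6 and wild type animals 8 and 11. Ctgf rested on 12 to 77 reads per animal and Fn1 on 1112 to 5083. Fn1 stood at 151 to 578 RPM in biallelic and 220 to 378 RPM in wild type animals.

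The genes whose pattern was most like that of the 3 leading members were ranked by Pearson r. Over the 18 tongue libraries with the mean of each stage removed (13663 genes), Thbs1 was closest to Ak4, Ap2a2 and Galk1 (0.856, 0.847 and 0.844), Cyr61 to Irs2, Picalm and Plk2 (0.865, 0.822 and 0.820), and Postn to Lama4, C1qtnf2 and Fbn1 (0.951, 0.902 and 0.901). Lama4 encodes a laminin chain and Fbn1 encodes fibrillin-1, both matrix proteins. Within the set, Thbs1 and Cyr61 correlated at 0.729 over these libraries, rank 53 for Thbs1 among 13662 other genes, and at -0.806 over the animals of the sorted cells, rank 10542 of 11126. Over these 11 animals (11127 genes), Thbs1 was closest to Cd9, Slc11a1 and F10 (0.958, 0.958 and 0.957), Cyr61 to Adm, Ppp1r15a and Asprv1 (0.928, 0.920 and 0.917), and Postn to Gem, Anks3 and Hsp90ab1 (0.959, 0.959 and 0.940). Slc11a1 encodes a metal transporter of phagocytes and F10 encodes coagulation factor X. The values describe libraries that share their depth, stage or cell makeup.

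Related genes moved with stage, in directions that also differed within a family. Of the other thrombospondins, Thbs3, Thbs4 and Comp (cartilage oligomeric matrix protein) were all called higher at P0 over E13.5 in both genotypes, Comp by 2.70 in biallelic and 3.60 in wild type tongues. Comp rose again at P20 over P0 (2.02 and 2.04), while Thbs3 fell (-1.04 and -0.97). Of the CCN relatives tested, Wisp2 rose at P0 (3.83 and 3.26) and again at P20 (2.59 and 2.52), and Wisp1 fell at P20 (-3.02 and -2.74). The tenascins Tnxb and Tnn rose at P0 in both genotypes, Tnxb to 101.8 to 129 RPM in biallelic and 110.4 to 144 RPM in wild type tongues, against at most 0.299 and 0.381 RPM at E13.5, where 1 wild type library held 0 reads. Tnn fell by 3.001 and 2.54 at P20. Among the 8 relatives of Sparc and Postn 3 were called higher and 1 lower at P0 in biallelic tongues and 5 and 1 in wild type tongues, led by Sparcl1 upward (2.79 and 3.18) and by Smoc2 downward (-2.25 and -1.64). Of all genes tested, 39.7% and 37.9% were called higher and 37.6% and 39.9% lower at P0 in biallelic and wild type tongues. The 3 of 8 relatives called higher in biallelic tongues are thus near the share of all genes. At P20 over P0, 29.9% and 31.7% of all genes were called higher and 17.3% and 14.9% lower.

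Of the 16 receptors, 11 were called higher and 3 lower at P0 in each genotype, where 39.7% and 37.9% of all genes tested were called higher and 37.6% and 39.9% lower in biallelic and wild type tongues. Cd36, a receptor for thrombospondin-1, rose by 4.83 in biallelic and 5.37 in wild type tongues, Itgb3 by 2.21 and 2.47 and Itga9, a tenascin-C binding integrin chain, by 2.11 and 2.04, while Itga3 (-1.51 and -1.48) and Sdc4 (-1.37 and -1.25) fell. At P20 over P0, 7 receptors were called higher and 6 lower in each genotype, with Itgb6 up (2.48 and 1.94) and Itga8 (-2.23 and -1.95) and Itga4 (-1.90 and -1.43) down. Of all genes tested in that step, 29.9% and 31.7% were called higher and 17.3% and 14.9% lower in biallelic and wild type tongues. Of the 14 YAP and TEAD targets tested among 16 listed beside Cyr61 and Ctgf, 11 were higher and 1 lower at P0 in biallelic and 10 and 1 in wild type tongues, with Ankrd1 (4.42 and 4.63) and Nuak2 (4.002 and 3.30) changing most. Of the YAP pathway Wwtr1, which encodes TAZ, rose by 2.15 and 2.22, Tead1 rose by 1.87 and 1.93, and Tead2 fell by 3.10 and 3.51 at P0. Of 19 SRF and immediate early genes, 16 were higher and 1 lower at P0 in biallelic and 17 and 1 in wild type tongues, with Fosb at 5.29 and 4.53 and Klf2 at 3.62 and 4.70. At P20 over P0, 5 of the YAP and TEAD targets were called higher and 2 lower in each genotype. Of the TGF-beta genes, 7 of 13 rose and 1 fell at P0 in biallelic tongues and 8 and 1 in wild type tongues, led by Ltbp2 (1.99 and 2.11), which encodes a latent TGF-beta binding protein relative.

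No gene of these lists was called by genotype in any table. At P20 the smallest p among the immediate early genes was that of Nr4a1 (0.70 ± 0.22, unadjusted p = 0.0143, limma adjusted p = 1), followed by Klf2 (0.29 ± 0.15, adjusted p = 1), and 14 of 18 tested lay above 0, with a median of 0.07 against -0.02 over all genes. At P0, 13 of 17 lay below 0, with a median of -0.23 against 0.04, led by Dusp1 (-0.63 ± 0.24) and Egr1 (-0.50 ± 0.20; adjusted p = 1 each). Over all genes tested, 44.7% lay above 0 at P20 and 60.7% at P0. The summed immediate early list overlapped between genotypes, at 375 to 594 RPM in biallelic and 415 to 507 RPM in wild type tongues at P20. Cyr61, itself an early response gene, lay above 0 at P20 and below 0 at P0, and a link to these genes was not tested. The YAP and TEAD targets had medians of 0.02, 0.06 and -0.01 at E13.5, P0 and P20. In the sorted costal cells the smallest p among these targets was that of Axl (1.07 ± 0.35, unadjusted p = 0.0083, adjusted p = 0.423), and of the receptors that of Itga5, the fibronectin receptor chain (0.69 ± 0.21, unadjusted p = 0.00586, adjusted p = 0.423). Tgfb1 there lay at -1.15 ± 0.42 (unadjusted p = 0.0148, adjusted p = 0.423) and Spp1, which encodes osteopontin, at 0.55 ± 0.27 (adjusted p = 0.441). Without wild type animals 7, 8 and 9 these differences were 0.16 for Axl, 0.24 for Itga5, -0.73 for Tgfb1 and 0.01 for Spp1 (adjusted p = 0.948 to 0.998). Wild type animals 10 and 11 alone remained in that comparison. The summed YAP and TEAD targets stood at 355 to 414 RPM in biallelic animals, at 234, 241 and 289 RPM in wild type animals 7, 8 and 9 and at 409.8 and 452 RPM in wild type animals 10 and 11. The summed receptors stood at 2479 to 2924 RPM in biallelic animals, at 1870.1 to 1970.4 RPM in wild type animals 7, 8 and 9 and at 2820.2 and 3288 RPM in the other wild type animals. The 3 animals are those with the high neutrophil markers, whose part in these differences was not tested.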

How the data were processed

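RNA of mouse tongues and of sorted costal cells was sequenced as described above. The authors deposited 4 tables of log2 RPM per gene, one per stage and tissue, on GRCm38; the processing used TopHat2 2.1.0 (tongues) or HISAT2 (sorted cells) and, in both, Trim Galore 0.4.2, per the submitters' processing notes. Reads were counted by a tool not given in the sources used here. In each library the smallest deposited value equals 0.9 reads and stands for 0 reads; within 0.05 of a read, 100% of values under 1000 reads were whole, which gave the read totals. For 4 biallelic animals of the sorted cells the labels list 2 libraries and the table holds 1 column, counted once.

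Genes at 1 RPM or more in 3 of 6 tongue libraries, 5 of 11 animals, or 3 of the 18 tongue libraries for stage contrasts entered limma 3.58.1 (R 4.3.3; mean-variance trend, Benjamini-Hochberg over all genes, threshold 0.05). Tongue replicates are biological, per the labels. Named list genes are the 3 largest changes past the threshold in each direction for stages, of which some are given, and the 2 of smallest p for genotype; likeness takes the 3 highest r. The method was tested on simulated reads that gave every gene the same dispersion, so its power at the spread of these genes was not tested. The members and lists were chosen with earlier results of these data known. Alternatives were other filters, scalings, a pseudocount of 1, voom, no trend, a replicate block and leaving out libraries. No 2 libraries of a group were alike within counting error (smallest chi-square over its degrees of freedom, 7.19). Sequences and start sites are RefSeq's, on GRCm38.p6; exon lengths are GENCODE's. Python 3.11.15 was used for tables and figures.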

Additional observations from a re-analysis of the deposited data

Results flagged for a closer look

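One value stood outside its group by the gap between neighbouring animals. Sparc in the sorted costal cells of biallelic animal 5 was 222.3 RPM, against 95.4 RPM in the next highest of the 6 biallelic animals, and the gap took 0.731 of the range on the log2 scale. This animal also had the highest fibroblast marker sum among the biallelic animals, 1428 RPM. Of 18 gene and genotype groups examined 1 stood out in this way, and chance alone gives about 1 in 20. None of the 18 differences of the genotype effect between neighbouring tongue stages passed the adjusted threshold.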

How the results depend on the processing

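Over the alternatives run, the members called higher at P0 over E13.5 were 6 or 7 in biallelic and 8 or 9 in wild type tongues, and those called lower at P20 over P0 were 4 or 5 and 4 to 6. In genotype contrasts none of the 1237 alternative values of the 9 genes was called (smallest adjusted p 0.2, Postn in the sorted cells with no filter). Of all genes, the count for genotype at P0 was 2 as reported, 1 with no filter, 1 with median centring, 1 with scaling to listed genes, 0 with voom, 0 with no trend, 0 with the replicate block and 0 to 4 with a library left out. For the genotype effect at P0 minus E13.5 it was 0, and 0 to 8 with a library left out; at P20 minus P0 it was 0, 1 with median centring, 1 with scaling to listed genes and 0 to 1 with a library left out. For genotype averaged over stages it was 3, 5 with no trend and 3 to 9 with a library left out. With no filter 19861 (biallelic) and 20373 (wild type) genes were called at P0 over E13.5, against 10554 and 10627, and 15070 at P20 over P0 in wild type, against 6366. The biallelic count at P20 over P0 stayed between 5133 and 6855, against 6446, with all libraries kept. With no filter 13350 (biallelic) and 13912 (wild type) of the calls at P0 over E13.5 were lower. At P20 over P0 in wild type 12368 were higher. A gene with 0 reads stands at 0.9 reads, so its RPM is lower in a deeper library. Wild type read totals were 61615137 to 92249098 at P0, against 38618277 to 52425994 at E13.5 and 45370175 to 58251242 at P20. Biallelic totals at P0 (48336734 to 75210824) and P20 (52965495 to 57209939) overlapped. The part of depth in these calls was not tested. At P20 over P0 the calls as reported split into 4088 higher and 2358 lower in biallelic and 4332 and 2034 in wild type tongues. With median centring they split into 2889 and 3480 in biallelic and 2794 and 3165 in wild type tongues. Equal replicate numbers correlated at -0.647 to 0.362 and share only a number; the replicate block left Cyr61 at P20 at 0.713 and changed no call of a member.

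Signs turned as follows, and the cause was not tested. With a library left out, genotype differences ranged from -0.278 to 0.262 (Cyr61, E13.5), -0.020 to 0.765 (Tnc, E13.5), -0.113 to 0.024 (Postn, P0), -0.189 to 0.251 (Thbs1, P20) and -0.563 to 0.088 (Postn, P20). Without wild type animals 7, 8 and 9, with wild type animals 10 and 11 left, they were -0.278 (Thbs1), 0.185 (Thbs2), 0.186 (Cyr61), 0.091 (Postn) and 0.623 (Tnc). In biallelic tongues the P0 over E13.5 change of Thbs1 was 0.063 with median centring, 0.089 with scaling to listed genes and -0.305 to 0.335 with a library left out, and that of Cyr61 -0.118 to 0.695. At P20 over P0 the biallelic change was -0.114 to 0.699 for Cyr61 and -0.050 to 0.452 for Nov, and the wild type change of Nov was -0.210 with median centring, -0.172 with scaling to listed genes and -0.153 to 0.235 with a library left out. The biallelic change of Ctgf at P20 over P0 passed the threshold with log2(RPM + 1) (1.02, adjusted p = 0.0316), voom (1.14, adjusted p = 0.0204) and without E13.5 biallelic replicate 3 (1.11, adjusted p = 0.0468) or P0 biallelic replicate 1 (1.38, adjusted p = 0.0493). Depth limits Nov, Ctgf and Thbs2 in the sorted cells, at 0 to 46, 12 to 77 and 0 to 606 reads per animal.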
